A study of Mus musculus with 2 samples.

Results

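The miR-9 and miR-124 genes of the newborn mouse hindbrain are described here, 6 gene copies (Mir9-1, Mir9-2, Mir9-3, Mir124a-1, Mir124a-2 and Mir124a-3) set against 1973 microRNA (miRNA) genes in each table. The copies were chosen by name. Of the 6, 5 had an entry of their own, and Mir9-1 was read from the opposite strand of Gm25641, an annotated miRNA gene that lies across it. MicroRNA-seq counted small RNAs, size-selected below 30 nucleotides from total RNA, in 2 libraries that form 1 group. Each library came from a single hindbrain of a B6NCrl mouse at postnatal age 0 day, one from pup 1 and one from pup 3, with no treatment or altered allele named and sex not collected. The labels name separate pups but give both 1 donor identifier, so the p-values below weigh the 2 libraries against counting error alone, and how far animals vary is not part of them.

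In vertebrates miR-9 and miR-124 are among the best known miRNAs of neural fate. Both arms of the miR-9 hairpin give working miRNAs: miR-9-5p represses the neuronal gene silencer REST and the progenitor factor TLX, and miR-9-3p represses the REST partner CoREST and the BAF53a subunit of the progenitor chromatin remodelling complex. miR-124 marks neurons, in which it represses the splicing regulator PTBP1 and many transcripts of other cell types, and REST in turn silences genes of both miRNAs outside neurons. Each family is made from several loci whose mature products are the same, so a read of the mature miRNA alone does not name its locus.

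The sequences of the miR-9 family are shown because only the bases outside the shared arms tell the copies apart. They come from RefSeq (GRCm38.p6), in which 3 of the 6 genes were matched: Mir9-1, Mir9-2 and Mir9-3. The mature arms, 5′ to 3′ with the seed (bases 2 to 8) in capitals, are the same in all 3 copies, with different seeds on the arms:
mmu-miR-9-5p: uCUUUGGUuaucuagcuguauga
mmu-miR-9-3p: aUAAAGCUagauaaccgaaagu
The 3 hairpins, with both mature arms in capitals, differ in the loop and in the flanks:
Mir9-1: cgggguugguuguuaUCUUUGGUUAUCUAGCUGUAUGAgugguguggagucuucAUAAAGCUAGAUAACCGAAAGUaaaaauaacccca
Mir9-2: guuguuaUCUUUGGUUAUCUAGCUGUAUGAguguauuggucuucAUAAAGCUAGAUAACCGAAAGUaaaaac
Mir9-3: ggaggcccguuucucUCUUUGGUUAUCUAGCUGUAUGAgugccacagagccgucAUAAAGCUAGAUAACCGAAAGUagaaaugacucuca
The annotated hairpins are 89, 72 and 90 bases long. The arms are separated by 16, 14 and 16 bases.

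Mir9-3 differs from the other copies closer to the arms than they differ from each other, at 3 of the 4 arm ends. Past the 3′ end of miR-9-5p, all pairs of copies share 3 bases. Before its 5′ end, Mir9-3 shares 0 bases with either of the others, while Mir9-1 and Mir9-2 share 7, up to the annotated end of Mir9-2. Past the 3′ end of miR-9-3p, Mir9-3 shares 1 base with the others, against 5 shared by Mir9-1 and Mir9-2. Before the 5′ end of miR-9-3p the numbers are 2 and 6.

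Variants of each arm were then listed in which the start moved by up to 2 bases and the end from 2 bases back to 4 bases on, and searched in the 1005 RefSeq hairpins on both strands. Of the 70 variants of both arms, 32 (45.7%) occurred only in Mir9-3. For Mir9-1 and for Mir9-2 it was 5 (7.14%) each, all from miR-9-5p. Along the whole hairpin, 60 of 69 windows of 22 bases were found only in Mir9-3, 44 of 68 only in Mir9-1 and 27 of 51 only in Mir9-2. The search covered these hairpins and not the genome, and it says nothing of which variants the cells made.

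**Figure D1:**
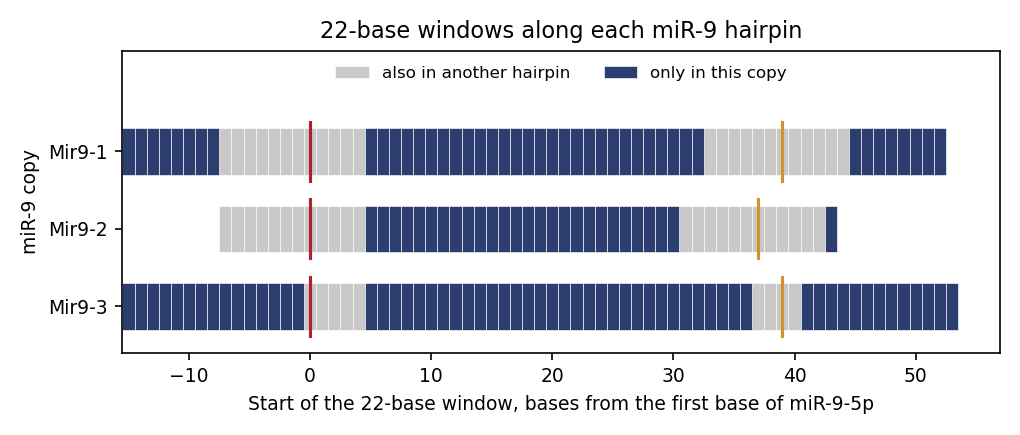
Start of every 22-base window along the 3 miR-9 hairpins, in bases from the first base of miR-9-5p (x axis), by copy (y axis). Dark cells are windows found only in that copy, grey cells also occur in another RefSeq hairpin, the red line marks the first base of miR-9-5p and the orange line that of miR-9-3p. Grey stretches around both arms are shorter in Mir9-3, with 60 of 69 windows dark.

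Levels are in CPM, the reads in the direction of a gene (own strand) for every 1000000 such reads over all miRNA genes of that library, which numbered 4906127 in pup 1 and 6238680 in pup 3. Intervals are exact binomial (Clopper-Pearson) at 95% and, like the level of 0.611 CPM in pup 1 and 0.481 CPM in pup 3 that a count of 0 would allow, cover counting error only. Reads that matched several genomic places were given to no gene. They were 4601400 in pup 1, 37.9% of the reads in the table (interval 37.92 to 37.97), and 5639848 in pup 3, 39.4% (39.37 to 39.42). The 6 copies together held 3070 counted reads in pup 1 and 2945 in pup 3, so that 1499 and 1915 reads at several places stood in the tables for each read counted at the 6 loci. How many of those reads were miR-9 or miR-124 cannot be read from the tables, and no level below measures the total of either miRNA.

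Mir9-3 held most of the counted miR-9 reads. It lies on chromosome 7, 79505264 to 79505353, plus strand, within an intron of Mir9-3hg, its noncoding host gene (coordinates on GRCm38, the assembly of mm10). It had 2640 reads or 538 CPM in pup 1 (interval 518 to 559) and 2406 reads or 386 CPM in pup 3 (370 to 401), a mean of 462 ± 108 CPM (SD, n = 2 pups). This placed it at rank 143 of the 1973 genes by mean CPM. Pup 3 was the lower library and the counting intervals did not overlap.

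Mir9-1 came next among the miR-9 copies. It lies on chromosome 3, 88215598 to 88215686, plus strand, within an intron of Gm3764, a noncoding gene, and inside the minus-strand Gm25641. Reads in the Mir9-1 direction numbered 320 or 65.2 CPM in pup 1 (interval 58.3 to 72.8) and 490 or 78.5 CPM in pup 3 (71.7 to 85.8), a mean of 71.9 ± 9.42 CPM (SD, n = 2). Here pup 3 was the higher library, with intervals that overlapped slightly. In the direction of Gm25641 itself, for which RefSeq lists the mature miRNAs miR-9b-5p and miR-9b-3p, there were 0 reads in pup 1 and 2 in pup 3. So nearly all reads at this place had the Mir9-1 direction.

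Mir9-2 was near the limit of detection. It lies on chromosome 13, 83738814 to 83738885, plus strand, over an exon of the noncoding gene C130071C03Rik. It had 12 reads or 2.45 CPM in pup 1 (interval 1.26 to 4.27) and 9 reads or 1.44 CPM in pup 3 (0.660 to 2.74), a mean of 1.94 ± 0.709 CPM (SD, n = 2). The pups were not distinguishable at this depth. Mir9-1 had 26.7 reads in pup 1 and 54.4 in pup 3 for each read of Mir9-2. What part the sequences that tell these copies apart had in this was not tested.

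Among the miR-124 copies, Mir124a-1 had the most reads. It lies on chromosome 14, 64590657 to 64590741, plus strand, over an exon of its noncoding host Mir124a-1hg, and had 73 reads or 14.9 CPM in pup 1 (interval 11.7 to 18.7) and 25 reads or 4.01 CPM in pup 3 (2.59 to 5.92), a mean of 9.44 ± 7.69 CPM (SD, n = 2). The intervals of the pups did not overlap, with pup 1 the higher.

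Mir124a-2 and Mir124a-3 had few reads. Mir124a-2 (chromosome 3, 17795662 to 17795770, plus strand, over an exon of the noncoding Mir124-2hg) had 8 reads or 1.63 CPM in pup 1 and 11 reads or 1.76 CPM in pup 3, a mean of 1.70 ± 0.0937 CPM (SD, n = 2). Its counting intervals, 0.704 to 3.21 and 0.880 to 3.15, overlapped almost wholly. Mir124a-3 (chromosome 2, 180894040 to 180894107, plus strand, without a host gene annotated in its direction) had 17 reads or 3.47 CPM in pup 1 (interval 2.02 to 5.55) and 4 reads or 0.641 CPM in pup 3 (0.175 to 1.64), a mean of 2.05 ± 2.00 CPM (SD, n = 2). Its intervals did not overlap.

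**Figure D2:**
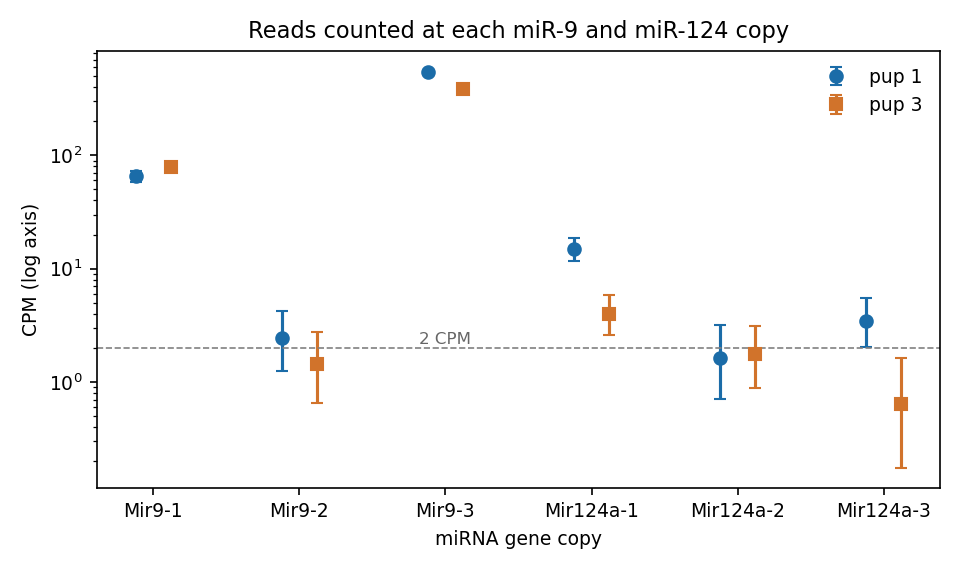
CPM (log axis) of the 6 copies in pup 1 (circles) and pup 3 (squares), with exact binomial 95% intervals for counting error; Mir9-1 is read from the strand opposite Gm25641. Mir9-3 stands at 538 and 386 CPM, and Mir9-2, Mir124a-2 and Mir124a-3 lie around the dashed line at 2 CPM.

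Levels of different copies were compared per 100 bases of annotated gene. The reads were size-selected below 30 nucleotides, so a longer annotated gene need not give more of them. Here and below, this unit therefore depends on where each annotation ends. Mir9-3 came first at 513 ± 120 CPM per 100 bases (SD, n = 2), followed by Mir9-1 at 80.8 ± 10.6, Mir124a-1 at 11.1 ± 9.04, Mir124a-3 at 3.02 ± 2.94, Mir9-2 at 2.70 ± 0.985 and Mir124a-2 at 1.56 ± 0.0860. By mean CPM, without lengths, the copies stood in the same order. The values of the pups for Mir9-3, Mir9-1 and Mir124a-1 did not overlap with those of the next copy above or below among these 3. Within each library Mir124a-1 was above Mir124a-3, at 17.5 against 5.10 CPM per 100 bases in pup 1 and 4.71 against 0.943 in pup 3, with counting intervals in CPM that did not overlap, although the lower value of Mir124a-1 lay under the higher value of Mir124a-3. Mir124a-3 was above Mir9-2 in pup 1, at 5.10 against 3.40, and under it in pup 3, at 0.943 against 2.00, with overlapping intervals. The pups' values for Mir9-2, 2.00 to 3.40, lay above those for Mir124a-2, 1.496 to 1.62, but the counting intervals of both copies overlapped. This separation rests on the annotated lengths of 72 and 109 bases. In CPM, Mir124a-2 was the higher copy in pup 3, at 1.76 against 1.44. Mir9-3, Mir9-1 and Mir124a-1 had at least 2 CPM in each pup, which was taken as detected. Of all genes, 20.6% met this level.

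Counted reads of miR-9 exceeded those of miR-124 in both libraries. All miR-9 copies together held 606 CPM in pup 1 and 466 CPM in pup 3, and all miR-124 copies 19.98 and 6.41 CPM. The miR-9 loci thus had 30.3 reads for each miR-124 read in pup 1 and 72.6 in pup 3. Because only reads placed at 1 locus enter, this ratio does not measure the ratio of the mature miRNAs.

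Among the miR-9 copies, the shares were similar in order in both pups but not equal. Mir9-3 took 88.8% of 2972 miR-9 reads in pup 1 (interval 87.6 to 89.9) and 82.8% of 2905 in pup 3 (81.4 to 84.2). Mir9-1 took 10.8% (9.68 to 11.9) and 16.9% (15.5 to 18.3), and Mir9-2 0.404% and 0.310%. These are shares of the reads placed at a single locus, not of the miR-9 that each copy made. Of the arm variants listed above, 45.7% occurred only in Mir9-3, against 7.14% for Mir9-1 and for Mir9-2. What part this had in the shares was not tested. There were 0.121 reads of Mir9-1 for each read of Mir9-3 in pup 1 and 0.204 in pup 3, a difference beyond counting error (Fisher's exact test, two-sided, adjusted p = 8.22e-11 over 6 pairs of copies). This ratio is taken within each library and so does not depend on how the libraries are scaled. The ratios of Mir9-2 to Mir9-1 and to Mir9-3 did not pass, with adjusted p = 0.176 and 0.827 by the same exact test.

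Among the miR-124 copies, Mir124a-1 took 74.5% of 98 reads in pup 1 (interval 64.7 to 82.8) and 62.5% of 40 in pup 3 (45.8 to 77.3). Mir124a-2 took 8.16% (3.59 to 15.4) and 27.5% (14.6 to 43.9), and Mir124a-3 17.3% (10.4 to 26.3) and 4 of 40 reads (2.79% to 23.7%). The ratio of Mir124a-1 to Mir124a-2 was 9.12 in pup 1 and 2.27 in pup 3 (exact test, adjusted p = 0.0368). That of Mir124a-2 to Mir124a-3 was 0.471 and 2.75 (exact test, adjusted p = 0.0421), but with reads on both strands counted its exact test adjusted p was 0.147. The ratio of Mir124a-1 to Mir124a-3, 4.29 and 6.25, did not pass (exact test, adjusted p = 0.827). With 17 and 4 reads of Mir124a-3, this does not show that the ratio was the same. In all, 3 of the 6 pairs differed. The miR-124 pairs among them share Mir124a-2, with 8 and 11 reads, and so are not separate results.

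**Figure D3:**
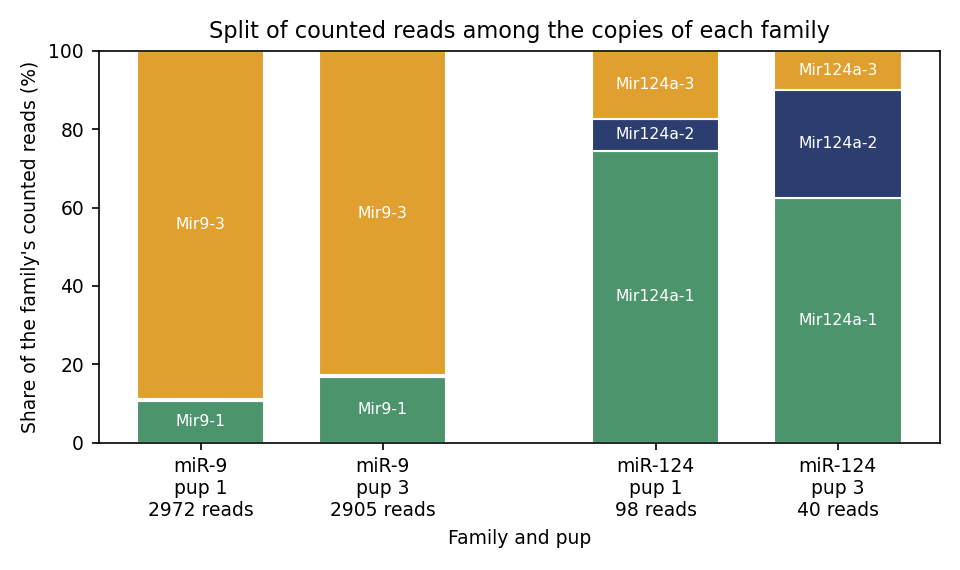
Share (%) of the counted reads of each family held by each copy, by pup, with the number of reads under each bar. Reads at several places are left out, so the bars do not show what each copy made. Mir9-3 holds 88.8% in pup 1 and 82.8% in pup 3; Mir9-2, under 1%, is not visible between Mir9-1 and Mir9-3.

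Gene by gene, the 2 libraries were compared with an exact binomial test against the ratio of effective library sizes from edgeR's TMM, with Benjamini-Hochberg adjustment over 508 tested genes. Genes were called at 2-fold or more where the adjusted p was under 0.05. Of the 5 copies with an entry, 2 were called, Mir124a-1 and Mir124a-3, both lower in pup 3. In the background, 6.69% of tested genes were called, 5.71% as lower and 0.984% as higher in pup 3. The log2 difference (pup 3 minus pup 1, with a pseudocount of 1 CPM) was -1.54 for Mir124a-1, where counting alone gave an SE of 0.28 (adjusted p = 6.75e-08, exact binomial test). For Mir124a-3 it was -1.36 with an SE of 0.40 (exact binomial test, adjusted p = 0.00398), on 21 reads in all. Neither had 100 reads in sum, so neither would be tested at that minimum.

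The other copies differed less. Mir9-3 was lower in pup 3 by more than counting error but by less than 2-fold, with a log2 difference of -0.34 and an SE of 0.04 (exact binomial test, adjusted p = 1.61e-16). At any fold, 47.6% of tested genes passed the adjusted p. Mir9-1, outside the tested table, had a log2 difference of 0.40 with an SE of 0.10 (exact binomial test, unadjusted p = 9e-05), the opposite direction to Mir9-3. Mir9-2 and Mir124a-2 had log2 differences of -0.41 and 0.16 with SEs of 0.41 and 0.42, and neither passed (exact binomial test, adjusted p = 0.518 and 0.894). The directions of all 6 copies were the same on library totals and with DESeq2 size factors.

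**Figure D4:**
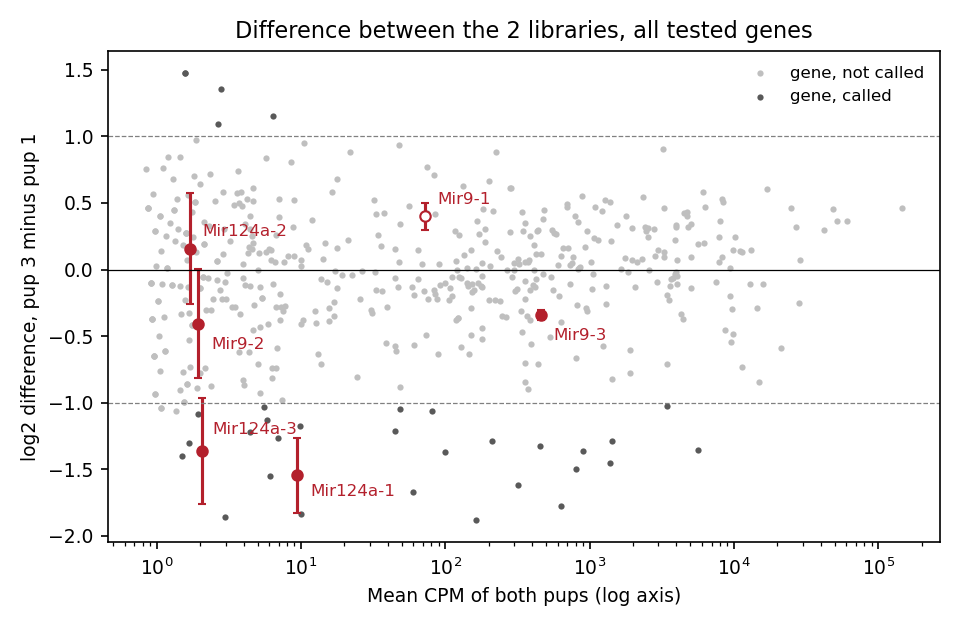
log2 difference between the libraries (pup 3 minus pup 1, TMM scaling) against mean CPM (log axis) for all 508 tested genes, with called genes in dark grey, the 6 copies in red with their counting error (SE), and Mir9-1, read from the opposite strand, as an open circle. Dashed lines mark a 2-fold difference; Mir124a-1 at -1.54 and Mir124a-3 at -1.36 lie under the lower line.

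Other miRNA families with several gene copies also held genes called lower in pup 3. In a list of 21 genes of neural families (miR-7, miR-128, miR-129, miR-135a, miR-138, miR-181, miR-218, miR-219 and miR-29b), 5 were lower and 0 higher: Mir138-1, Mir138-2, Mir181b-1, Mir181b-2 and Mir29b-1. In a list of other families with several copies, 6 of 24 tested were lower and 0 higher: Mirlet7c-2, Mirlet7a-1, Mir16-2, Mir103-1, Mir103-2 and Mir19b-2. Both lists together had 24.4% of 45 tested genes lower, against 3.49% of the 458 tested genes outside these lists and the 6 copies. The median log2 difference was -0.13 in the neural list and -0.34 in the other list, against -0.02 over all tested genes. Earlier results of these data had already shown several of these genes to differ, so the lists are no independent evidence.

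Neuronal miRNAs made from 1 gene each were close in both pups in median and sum, while single genes moved in both directions. Of 19 listed, 1 was called lower in pup 3, Mir541, with a log2 difference of -1.02, and 0 were higher. Their median log2 difference was 0.08. Mir137, which acts in neuronal maturation, stood at 11363 CPM in the first pup and 11340 CPM in pup 3. Its log2 difference was 0.14 (exact binomial test, adjusted p = 5.45e-61), under the fold minimum. CPM divides by library totals and the log2 differences use TMM, so small differences can change direction between these scalings. The summed level of the list was 86358 CPM in pup 1 and 84983 CPM in pup 3.

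Per 100 bases, Mir9-3 lay inside the range of both neural lists and the miR-124 copies near or under their lower ends. The median of the 19 single-gene neuronal miRNAs was 1967 CPM per 100 bases (range 86.5 to 27569). The median of the 21 genes of neural families with several genes was 385 (6.20 to 5446). In CPM, without lengths, the medians of these lists were 1396 and 416, beside a mean of 462 for Mir9-3. Among these 21, Mir7b shared no mature arm with another gene. Mir9-3 was above 5 of the 19 and above 11 of the 21. Mir9-1 was above 0 of the 19 and 4 of the 21, Mir124a-1 above 0 and 2, and Mir9-2, Mir124a-2 and Mir124a-3 above 0 of either list. The list of 29 genes of other families with several genes had a median of 68.9 (0 to 3550), and every copy lay inside its range. Mir9-3 was above 23 of these 29, Mir9-1 above 17 and Mir124a-1 above 10. Mir9-2 and Mir124a-3 were each above 6, and Mir124a-2 above 5.

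**Figure D5:**
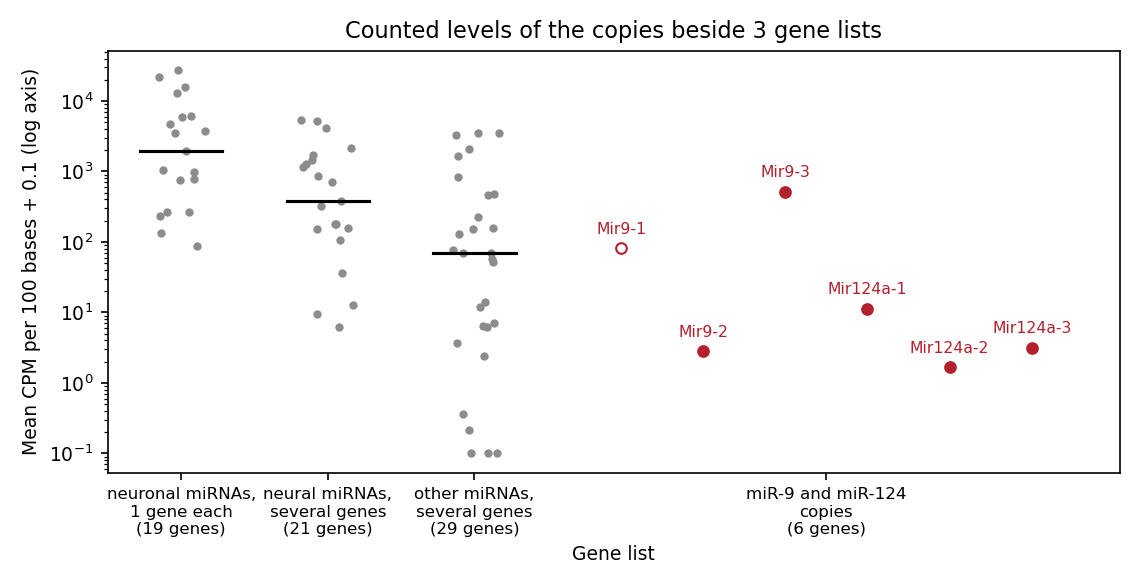
Mean CPM per 100 bases plus 0.1 (log axis) of genes in 3 lists (grey points, black line at the median) and of the 6 copies (red; Mir9-1, read from the opposite strand, open). Mir9-3 at 513 lies near the median of the neural list with several genes, and Mir9-2, Mir124a-2 and Mir124a-3 lie below every point of both neural lists.

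Genes that share a mature arm were compared with the rest as a description. Of 916 genes with a mature sequence in RefSeq, 85 besides the copies of miR-9 had an arm that also occurs in another gene, with a median of 6.24 CPM per 100 bases and 55.3% detected. The 829 genes with no shared arm had a median of 1.14 and 39.0% detected. The 85 pool 2 unlike classes. The 53 genes with some arms shared had a median of 68.9 CPM per 100 bases and 77.4% detected. Where every listed arm was shared, as in the miR-9 copies, 6 of 32 genes were detected, with 842 CPM the highest mean in CPM, and the median was 0. Among detected genes alone, the median was 231 CPM per 100 bases for 323 genes with no shared arm and 156 for 41 genes with some arms shared. It was 480.5 for the 6 detected genes with every arm shared. The order of the classes thus differed between all genes and detected genes, and how reads of single genes were mapped was not tested.

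The genes nearest in level to each detected copy, by Euclidean distance of log2(CPM + 1) over the 2 libraries, were Mir210 and Mir700 for Mir9-3 (distance 0.231 and 0.239). For Mir9-1 they were Mir302b and Mir429 (0.0669 and 0.263), and for Mir124a-1 Mir181b-1 and Mir5113 (0.203 and 0.331). Mir181b-1, with 16.5 and 3.53 CPM in pup 1 and pup 3, is 1 of the genes named above as lower in pup 3. With 2 libraries this likeness is one of level only.

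Markers checked the tissue and the other cells it could hold. Of the Hox-linked miRNAs that mark hindbrain and spinal cord, 5 of 6 were detected, with a summed level of 52557 CPM in the first pup and 34978 CPM in pup 3. The median log2 difference of the 5 tested was -0.35, and 0 of them were called. Mir10a stood at 32189 and 24602 CPM, and Mir10b at 19914.5 and 10051 CPM, a log2 difference of -0.85. For the other lists, summed levels in pup 1 and pup 3 were 1776 and 1649 CPM for 3 oligodendrocyte genes, and 55322 and 65476 CPM for 3 vessel genes. They were 1340 and 904 CPM for 6 blood and immune genes, and 19044 and 17212 CPM for 7 genes of choroid plexus and ependyma. All genes of these last 4 lists that had an entry were detected and 0 were called. Median log2 differences were 0.05 for oligodendrocyte, 0.36 for vessel, -0.17 for blood and immune, and -0.13 for choroid plexus and ependyma genes. The part of any of these 5 lists in the differences of the miR-124 copies was not tested, and in whole tissue fewer cells of a type and less RNA per cell cannot be told apart.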

How the data were processed

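The authors deposited for each of 2 libraries 1 table of read counts by miRNA gene, in whole numbers, not normalized and not pooled, with assembly mm10 and annotation M4 per the text files beside the tables. For the aligner and counter: not given in the sources used here. Rows that name no gene stayed out of library totals; reads at several places are given above, and unmapped reads were 17.7% and 13.9%.

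Gene IDs were matched without version to GENCODE M21 (1894 of 1973). Coordinates and lengths come from it and can differ from M4. For Mir9-2 and Mir124a-3 the version of the ID does differ, so their printed coordinates and lengths may not be those counted. Own-strand counts were used, except for Mir9-1. Scaling was by TMM (edgeR 4.0.16) or, as an alternative, DESeq2 1.42.0 size factors; tests used scipy 1.17.1. Genes with 10 or more counts in sum were tested. The test was checked on simulated counts with counting error only, so that check does not cover variation between libraries. Counts of a gene do not separate its mature arms, and ligation favours some sequences.

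Named were all 6 copies, up to 4 genes of highest mean CPM and all called genes per list, and the 2 genes nearest each detected copy; not all are printed. Members and lists were chosen with earlier results of these data known. Sequence comparisons and Mir9-1 as a tested row were added after seeing the data. The sequences are from RefSeq, GRCm38.p6. Mir124a-1, Mir124a-2 and Mir124a-3 sequences were not used here.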

Additional observations from a re-analysis of the deposited data

Results flagged for a closer look

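Reads on the strand opposite a copy, which enter above only where both strands were counted, exceeded the 3 counts that a count of 0 allows in 2 genes. There were 5 reads opposite Mir9-3 in pup 1, beside 2 in pup 3. Opposite Mir124a-3 there were 5 reads in pup 1 and 5 in pup 3, more in pup 3 than the 4 on its own strand. With both strands counted, the ratio of Mir124a-2 to Mir124a-3 no longer passed, with an exact test adjusted p of 0.147 in place of 0.0421.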

How the results depend on the processing

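The 34 calls over all genes became 18, all lower in pup 3, with 100 or more counts in sum, and 242 with no fold minimum. The split of 29 lower to 5 higher became 25 to 8 by DESeq2 size factors, and 38 to 4 by library totals. Of the copies 2 were called, but 0 at 100 or more counts, where fewer were tested (1 of 5), and 3 with no fold minimum. The log2 difference of each copy kept its direction and side of the threshold in all 18 alternatives of scaling and pseudocount. Counted with reads at several places in the denominator, Mir9-3 averaged 240 CPM and Mir124a-1 4.89 CPM. CPM moved by more than the SD between pups in 8 of 30 alternatives, all of the denominator. The 30 include leaving out a pup, which always moves the mean of 2 by less than their SD. Those alternatives could therefore not count as moved. The ratio of median CPM, genes with a shared arm over genes without, was 6.60, and 15.2 when sharing meant a 20-base stretch of the hairpin; leaving out either replicate gave 7.25 to 9.00. With starts moved by up to 1 base and ends from 1 base back to 2 on, 7 of 24 arm variants occurred only in Mir9-3 and 0 only in Mir9-1 or Mir9-2. The cause of these shifts was not tested. With 1 library left out no comparison of libraries remains. No paired analysis was possible because there is 1 group. Depth limits Mir9-2, Mir124a-2 and Mir124a-3, with 21, 19 and 21 reads in all.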
